A study of Mus musculus with 5 samples.

Results

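The genes described here were the replication-dependent histone genes of the mouse. They were taken as the protein-coding genes of the GENCODE annotation of GRCm38/mm10 whose symbols start with Hist1h, Hist2h, Hist3h or Hist4h, and 67 of 21951 protein-coding genes met this rule. No measured value entered this rule. The Hist1 cluster held 54 of them on chromosome 13 between 21715763 and 23934851, the Hist2 cluster 10 on chromosome 3, Hist3 2 on chromosome 11, and Hist4 1 on chromosome 6. By histone type there were 6 H1, 18 H2A, 18 H2B, 12 H3 and 13 H4 genes. The family name rests on the symbols, because peak lists carry no expression, and it takes in 3 testis-type genes, Hist1h1t, Hist1h2aa and Hist1h2ba.

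These genes supply the histones that package DNA as it is copied. Core histones H2A, H2B, H3 and H4 form the nucleosome, and the linker histone H1 binds the DNA between nucleosomes. Most replication-dependent histone genes are short and intronless, many H2A and H2B genes share a divergent promoter, and their mRNAs end in a stem-loop in place of a poly(A) tail. The copies of each core histone are nearly identical in coding sequence, so that short reads from one copy can also align to another.

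The data were peak lists from chromatin immunoprecipitation followed by sequencing (ChIP-seq) of V5-tagged proteins in undifferentiated female mouse embryonic stem cells (mESCs), with 1 library per protein. REX1 is a zinc-finger transcription factor, and RNF12 (encoded by Rlim) is the E3 ubiquitin ligase that marks REX1 for degradation. The question put by the study was where RNF12 sits on chromatin relative to REX1. RNF12 WT and the RING domain mutant RNF12 H569A,C572A, which lacks catalytic activity, were each carried by a FLAG-V5 transgene driven by the ubiquitous pCAG promoter in a stable line of Rlim+/- cells of 129/Sv-Cast/Ei background, so the untagged allele remained. The REX1 library came from cells labelled WT with FLAG-V5-REX1, and since the study refers to earlier work for REX1 occupancy, it may not have been made alongside the RNF12 libraries. RNF12 cells received the proteasome inhibitor MG132 at 15 μM for 3 h and were fixed with 2 mM DSG and 1% formaldehyde, whereas the labels do not state these steps for the REX1 cells separately. With 1 library per list there was no replicate error, so no test between lists was run, and differences between lists cannot be told apart from differences between libraries. Fold enrichments, each relative to that list's own background, were ranked only within a list.

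Histone genes carried a summit more often than protein-coding genes at large in every list. A REX1 summit (the highest point of a peak) lay within 1 kb of a transcription start site (TSS) at 64 of 67 histone genes, or 95.5% (95% Wilson interval 87.6 to 98.5), against 66.9% of all protein-coding genes. RNF12 WT summits were found at 64 histone genes as well (95.5%), against 68.3%. RNF12 H569A,C572A summits were found at 63, or 94.0% (85.6 to 97.7), against 67.2%. All 3 lists had a summit at 63 histone genes (94.0%), where 60.2% of protein-coding genes had one, and no list had a summit at 2 histone genes (2.99%), where 25.8% of protein-coding genes had none. The intervals cover counting error only, and they treat as separate genes that share peaks: 35 of 86 REX1 peaks, 36 of 77 RNF12 WT peaks and 34 of 71 RNF12 H569A,C572A peaks at histone genes lay within reach of 2 or more of them. Counting only summits whose central 32 bases occur once in the genome, 35.8% of histone genes had a REX1 summit (background 65.3%), 22.4% an RNF12 WT summit (66.4%) and 17.9% a mutant summit (63.8%), and 9 had one in all 3 lists. In their coding sequence 44 histone genes have under 25% unique words of 32 bases and 13 have none. How much of the whole region within 1 kb of their start sites is unique was not measured, so nothing is read from these shares against the background.

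The lists parted in how high these peaks stood. In the RNF12 H569A,C572A list, 40 of 67 histone genes (59.7%, interval 47.7 to 70.6) had a summit in the top 1% of the list by fold enrichment, where 0.501% of protein-coding genes, 110 in all, had one. In the RNF12 WT list this held for 6 histone genes (8.96%, interval 4.17 to 18.2), against 3.8%. In the REX1 list it held for 1 (1.49%, interval 0.264 to 7.98), against 2.45%. By this count of summits within 1 kb of an annotated TSS, REX1 showed no excess of histone genes among its highest peaks. In the top 10%, the counts were 60 for RNF12 H569A,C572A (89.6%, background 14.4%), 29 for RNF12 WT (43.3%, background 23.3%) and 25 for REX1 (37.3%, background 18.7%). Counting only mutant summits whose central 32 bases occur once, 0 of 67 histone genes were in the top 1% (background 0.269%). With those summits ranked among themselves, 2 of 67 were (background 2.1%). Both counts were added after the data were seen. Repeated sequence took a larger share of the mutant list than of the others, with 51.7% of its summits against 15.9% and 15.3%, and how reads that align to several places were filtered is not given in the sources used here. Whether the lists were made alike in this respect was not tested, and ranks in the mutant list are to be read with this limit.

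Of the 10 highest peaks of the whole RNF12 H569A,C572A list, 7 were at histone genes, as were 20 of the highest 100. The RNF12 WT list had none among its highest 10 and 1 among its highest 100, and the REX1 list had none among its highest 500. These counts take only peaks within 1 kb of an annotated TSS. A REX1 summit 858 bp downstream of the Hist1h2be coding start, at a fold enrichment of 19.5, was thus left out. It exceeded the 16.3 of the 500th REX1 peak. Over distinct peaks, the median within-list percentile of fold enrichment was 99 for RNF12 H569A,C572A, against 64.2 for peaks at all protein-coding genes. For RNF12 WT it was 57.3 against 56.3, and for REX1 72.1 against 52.9. The typical RNF12 WT peak at a histone gene was therefore no higher than a typical promoter peak. Peaks at histone genes were broader in every list. Median widths were 312 bp against 165 in RNF12 WT, 390 against 197 in REX1 and 381 against 245 in the mutant list. Ranked by −log10 q, which also grows with the number of reads, the mutant median was 99.4 against 60.9, that of RNF12 WT 90.7 against 61.7, and that of REX1 91.3 against 57.1.

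**Figure D1:**
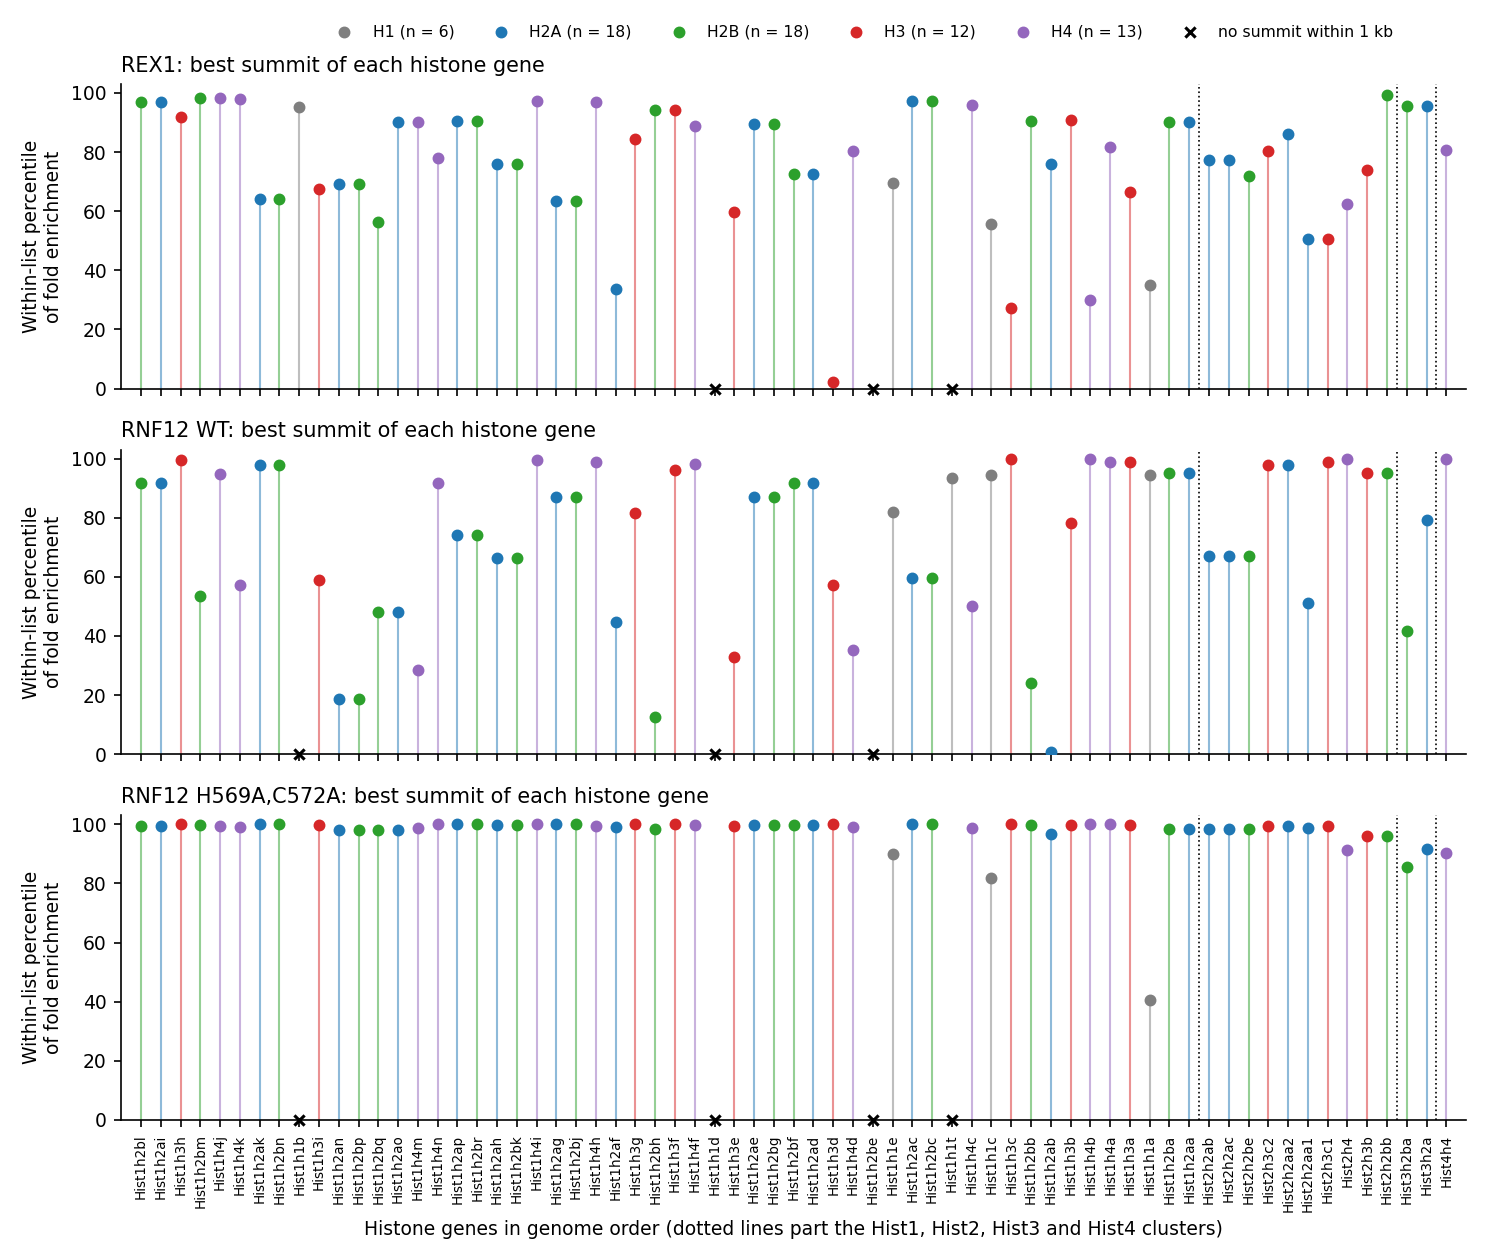
Within-list percentile of fold enrichment (vertical axis, 0 to 100) of the highest summit within 1 kb of a TSS for each of the 67 histone genes in genome order, one panel per list, coloured by histone type, with crosses for genes that had no such summit. Nearly all core histone genes sit close to 100 in the RNF12 H569A,C572A panel, whereas the genes spread from 0.733 to 100 in the RNF12 WT panel and from 2.37 to 99.2 in the REX1 panel.

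Taking the highest summit of each gene, 59 of the 63 histone genes present in all 3 lists stood at a higher percentile in the RNF12 H569A,C572A list than in the RNF12 WT list, and 60 stood higher there than in the REX1 list. Between REX1 and RNF12 WT the order was even, with 33 genes higher in REX1 and 30 higher in RNF12 WT. One gene was below the 50th percentile in the RNF12 H569A,C572A list, against 12 in the RNF12 WT list and 5 in the REX1 list.

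In the RNF12 H569A,C572A list, the sequence under the highest summits was coding sequence that many histone genes share. The following windows are centred on RNF12 H569A,C572A summits and written in the direction of the gene, with the central 32 bases in capitals. They are shown because the number of times those 32 bases (the summit word) occur in the genome differed sharply between them. They came from GRCm38/mm10 at chr13:23757192-23757292 (Hist1h4b, + strand), chr13:23683570-23683670 (Hist1h2ac, - strand), chr13:23575907-23576007 (Hist1h3d, + strand), chr13:21753503-21753603 (Hist1h2ak, - strand), chr13:23934687-23934787 (Hist1h2aa, + strand), chr6:136804237-136804337 (Hist4h4, - strand) and chr13:23763804-23763904 (Hist1h1a, + strand), and all of these summits were in coding sequence.
Hist1h4b: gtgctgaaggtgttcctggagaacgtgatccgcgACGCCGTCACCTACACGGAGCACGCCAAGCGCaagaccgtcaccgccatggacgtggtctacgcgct
Hist1h2ac: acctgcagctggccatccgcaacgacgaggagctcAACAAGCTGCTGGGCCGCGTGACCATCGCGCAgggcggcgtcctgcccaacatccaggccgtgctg
Hist1h3d: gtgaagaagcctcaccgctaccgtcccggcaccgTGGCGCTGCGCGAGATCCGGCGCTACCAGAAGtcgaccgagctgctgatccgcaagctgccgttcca
Hist1h2ak: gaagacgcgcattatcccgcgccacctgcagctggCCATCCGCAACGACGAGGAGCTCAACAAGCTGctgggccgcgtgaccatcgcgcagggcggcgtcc
Hist1h2aa: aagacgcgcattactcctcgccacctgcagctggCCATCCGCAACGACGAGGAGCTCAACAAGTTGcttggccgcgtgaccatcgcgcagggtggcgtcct
Hist4h4: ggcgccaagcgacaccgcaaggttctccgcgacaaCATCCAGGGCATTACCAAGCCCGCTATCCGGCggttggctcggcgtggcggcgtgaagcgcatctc
Hist1h1a: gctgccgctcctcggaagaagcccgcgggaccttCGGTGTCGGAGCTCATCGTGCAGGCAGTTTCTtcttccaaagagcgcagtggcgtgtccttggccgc

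The Hist1h4b word occurred 11 times in the genome, all 11 inside records of histone genes of this family, and its peak, with a fold enrichment of 68.1, was the highest of the RNF12 H569A,C572A list. The Hist1h2ac word occurred 14 times, 12 of them in the family (fold enrichment 63.4, rank 2), the Hist1h3d word 9 times, 8 of them in the family (59.9, rank 5), and the Hist1h2ak word 21 times, 16 of them in the family (60.2, rank 4). The words of Hist1h2aa, Hist4h4 and Hist1h1a occurred once, and fold enrichment at these summits was 22.9, 15.8 and 6.2. Hist1h2ak and Hist1h2aa carried the same stretch of the H2A coding sequence under their summits, and their 32-base words differed by 1 substitution, C30T, counted from 1 at the 5′ end of the word with the Hist1h2ak base first. In this pair the testis-type gene thus carried a unique word and a lower peak than its replication-dependent relative. Over all mutant peaks at histone genes the ranges overlapped. Fold enrichment ran from 6.12 to 68.1 for repeated words and from 5.06 to 22.9 for words found once.

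Repeated words were frequent at histone genes and rare at the start sites of protein-coding genes at large. The summit word occurred 2 or more times at 62 of 71 RNF12 H569A,C572A peaks (87.3%), 62 of 77 RNF12 WT peaks (80.5%) and 59 of 86 REX1 peaks (68.6%), against 7.3%, 3.13% and 2.82% of peaks at all protein-coding genes. Median copy numbers at histone genes were 11, 9 and 3. Over the whole lists, 51.7% of RNF12 H569A,C572A peaks had a repeated word, against 15.9% for RNF12 WT and 15.3% for REX1, and of the 100 highest RNF12 H569A,C572A peaks 97 had one, against 0 and 4 in the RNF12 WT and REX1 lists. Of the 981 peaks in the top 1% of the mutant list, 920 had a repeated word, so repeated words were more frequent among its highest peaks than over the list.

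By fold enrichment, the height of a peak at histone genes moved with repetition in opposite ways. In the RNF12 H569A,C572A list the 62 peaks with a repeated word had a median percentile of 99.4, with 36 in the top 1%, and the 9 with a word found once had a median of 90.4, with 0 in the top 1% and a highest fold enrichment of 22.9. In the RNF12 WT list the 15 peaks with a word found once stood higher, at a median of 93.3, than the 62 with a repeated word, at 52.3. In the REX1 list the medians were 85.2 for 27 peaks found once and 67.5 for 59 repeated ones. Peaks whose word was found once thus stood at medians of 90.4 in the mutant list, 93.3 in RNF12 WT and 85.2 in REX1, where once-found words at all protein-coding genes had medians of 65.0, 56.9 and 53.2. Ranked by −log10 q, the opposite direction was gone: medians for repeated words and words found once were 90.9 and 90 in RNF12 WT, 91.4 and 89.9 in REX1, and 99.6 and 85.7 in the mutant list.

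Peaks over repeated words at other genes stood lower than those at histone genes. Among RNF12 H569A,C572A peaks at other protein-coding genes whose word occurred 2 to 21 times, the range seen at histone genes, the median percentile was 58.0 and 8 of 1031 (0.776%) were in the top 1%, and away from protein-coding TSSs it was 45.5 and 62 of 12056 (0.514%). For words found once, the share in the top 1% was 0.216% at all protein-coding genes and 0.13% over the whole list, so repeated words were the more frequent there too. Copy numbers were not matched within this range. The corresponding median at histone genes was 99.4. How reads that align to several copies were placed, and its part in these heights, was not tested, because the lists hold no reads.

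**Figure D2:**
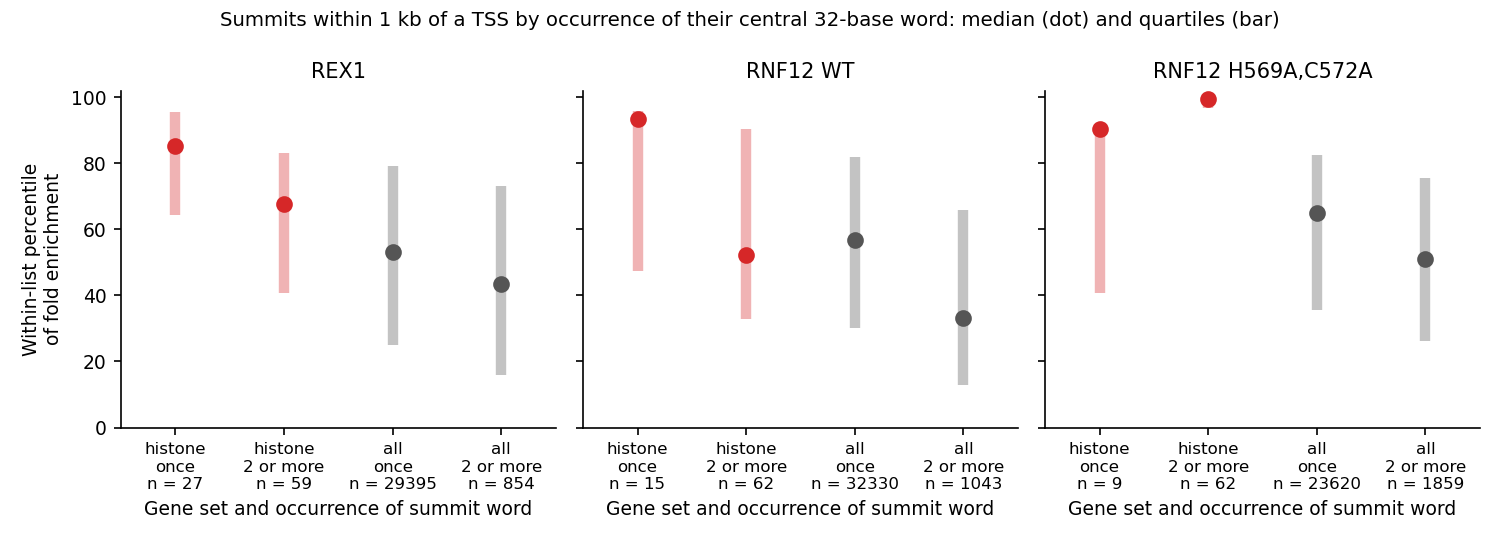
Within-list percentile of fold enrichment (vertical axis) of summits within 1 kb of a TSS, for histone genes (red) and all protein-coding genes (grey), split by whether the central 32-base word occurs once or 2 or more times in the genome. Dots are medians, bars run from the lower to the upper quartile, and n counts peaks. Repeated words have the higher median only at histone genes in the RNF12 H569A,C572A panel, at a median of 99.4 against 90.4 for words found once.

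Gene by gene, the same direction held in the mutant list but not in steps in the other 2 lists. The coding sequences of histone genes had a median of 17.0% of 32-base words found once in the genome, 44 genes had under 25% and 13 had none. Linker histone H1 genes were the most distinct, with a median of 83.8%, and H3 genes the least, with 9.13%. The 43 genes with under 25% unique words and an RNF12 H569A,C572A summit had best fold enrichments from 21.2 to 68.1, and the 12 with 50% or more had 6.2 to 26.9. In the RNF12 WT list the same classes overlapped over most of their ranges, from 2.26 to 12.2 and from 3.57 to 13.4, with median percentiles of 86.9 and 94.5. The class between, with 25 to 50% unique words, had a median of 51.8 there and of 99.6 in the mutant list. In REX1 the medians were 80.2 under 25%, 89.6 at 25 to 50% and 77.3 at 50% or more.

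**Figure D3:**
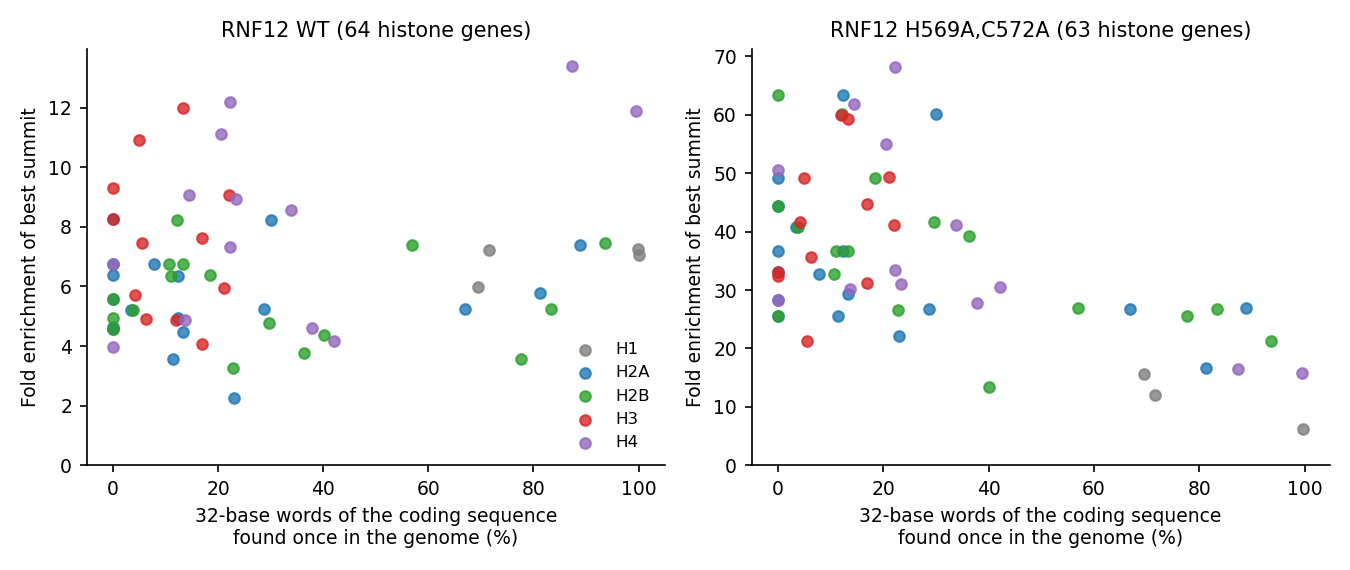
Fold enrichment of the best summit of each histone gene (vertical axis, linear from 0, on a separate scale per list) against the percentage of 32-base words of its coding sequence found once in the genome, for RNF12 WT (64 genes) and RNF12 H569A,C572A (63 genes), coloured by histone type. Genes at the right of the mutant panel, with 50% or more unique words, do not exceed 26.9, and in the RNF12 WT panel the highest value, 13.4, belongs to a gene at 87.4%.

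By histone type, core histone genes carried the high RNF12 H569A,C572A peaks and H1 genes did not. The top 1% held 10 of 18 H2A genes, 10 of 18 H2B genes, 11 of 12 H3 genes and 9 of 13 H4 genes and 0 of 6 H1 genes. Genes were counted by their best summit within 1 kb, so divergent H2A and H2B genes often brought the same peak into both types. The H3 gene Hist2h3c2 was counted through a peak in the neighbouring H2A gene Hist2h2aa2. Median best percentiles were 99.2 for H2A, 99.8 for H2B, 99.9 for H3 and 99.3 for H4, and 81.7 for the 3 H1 genes with a summit. RNF12 WT ranked the types in another order, with H4 at 98.2, H3 at 95.7, H1 at 93.9, H2A at 70.5 and H2B at 67.0. The H1 medians rest on the 4 H1 genes with a summit in RNF12 WT and the 4 in REX1. REX1 had H2B at 90.2 and H4 at 88.8 above H2A at 77.3, H3 at 70.7 and H1 at 62.7. Types ranged widely within themselves, from 28.5 to 100 for H4 and from 12.6 to 97.7 for H2B in the RNF12 WT list, so these orders describe single libraries.

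Among H4 genes, which encode the most conserved core histone, Hist1h4b had fold enrichments of 3.9 in REX1, 12.2 in RNF12 WT and 68.1 in RNF12 H569A,C572A. It ranked 67387, 124 and 1 in these lists, so its height in both RNF12 lists was not shared by REX1. Hist1h4a reached 61.8 and rank 3 in the mutant list and rank 1160 in RNF12 WT, where that peak lay closer to the neighbouring Hist1h3a. Hist1h4i was high in all of them, with percentiles of 97.4 in REX1 and 99.7 in RNF12 WT, and rank 8 in the mutant list. Hist1h4j and Hist1h4k were among the 5 highest Hist1 genes in REX1, at fold enrichments of 12.0 and 11.2. The Hist1h4j REX1 summit lay over a word found once.

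Among H3 genes, Hist1h3d was the most divided, at percentile 2.37 in REX1, 57.3 in RNF12 WT and rank 5 in RNF12 H569A,C572A. Hist1h3c stood at percentile 27.1 in REX1 but at ranks 137 and 6 in the RNF12 lists, and Hist1h3h at ranks 321 and 15. The REX1 summit at the Hist1h3h TSS stood at percentile 85.2, and the higher one within 1 kb, at 91.8, lay in the neighbouring Hist1h2ai. In the RNF12 WT list, Hist1h3c and Hist1h3h were the H3 genes of the top 1%.

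H2A and H2B genes came largely as divergent pairs that shared their peaks. Hist1h2ac and Hist1h2bc had a REX1 peak at percentile 97.3, RNF12 WT peaks of at most percentile 59.6, and the second highest mutant peak. Hist1h2ak and Hist1h2bn stood at percentiles 64 and 97.7 in REX1 and RNF12 WT and at rank 4 in the mutant list. Hist1h2bm had one of the higher REX1 peaks, with a fold enrichment of 11.8, and percentile 53.5 in RNF12 WT. The testis-type pair Hist1h2aa and Hist1h2ba, which package chromatin in male germ cells, had summits in all 3 lists at percentiles of 90.2, 95 and 98.5, the first 2 over words found once.

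Linker histone genes held 3 of the 4 histone genes missing from one list or more. Hist1h1b had 3 REX1 summits, the highest at percentile 95.3, and none of either RNF12 list. Hist1h1t, the testis-specific linker histone, had an RNF12 WT summit alone, at percentile 93.3 and 605 bp downstream of its TSS. Hist1h1d and the H2B gene Hist1h2be had no summit of any list within 1 kb of their annotated TSS, but their coding sequences start 1828 and 35168 bp downstream of their annotated 5′ ends. Measured from the coding start, an alternative added after these values were seen, Hist1h1d had summits in all 3 lists at percentiles of 43.7, 87.5 and 84.1, and Hist1h2be at 99.7, 81.6 and 92.0, and no histone gene was without a summit.

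Hist1h1a, Hist1h1c and Hist1h1e, named after their values were seen to complete the H1 genes, had summits in all lists. In the mutant list they stood at percentiles 40.7, 81.7 and 90.1, the first being the lowest of all histone genes there. Their RNF12 WT percentiles were 94.6, 94.5 and 81.9.

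The smaller clusters had a summit at every gene in every list. In Hist2, Hist2h4 had the highest RNF12 WT peak of all histone genes, with a fold enrichment of 13.4 and rank 45, over a word found once, but percentile 62.3 in REX1 and 91.4 in the mutant list. Hist2h2bb had the highest REX1 peak within 1 kb of an annotated TSS, with a fold enrichment of 14.8 at rank 738, 14 bp downstream of its TSS. The H3 genes Hist2h3c1 and Hist2h3b stood at percentiles 99 and 95.3 in RNF12 WT and 99.5 and 96.2 in the mutant list. The highest peaks within 1 kb of the H3 gene Hist2h3c2, at 97.8 and 99.5, were those in the neighbouring H2A gene Hist2h2aa2, and its own summits downstream of the TSS stood at 9.7 in RNF12 WT and 95.2 in the mutant list. The H2A gene Hist2h2aa1 had a mutant percentile of 98.8, and Hist2h2ab, Hist2h2ac and Hist2h2be shared one mutant peak at 98.4. The best mutant summit of each Hist2 gene thus stood between 91.4 and 99.5, and further summits at these genes reached down to 23.1.

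In Hist3, Hist3h2a and Hist3h2ba had REX1 summits at percentiles 95.6 and 95.7, RNF12 WT summits at 79.1 and 41.8 and mutant summits at 91.6 and 85.6. The single Hist4 gene, Hist4h4, whose coding words are 99.6% unique, stood at 80.8 in REX1, 99.9 in RNF12 WT (fold enrichment 11.9, rank 144) and 90.4 in the mutant list. The 4 genes that ranked higher in RNF12 WT than in RNF12 H569A,C572A were Hist2h4 and Hist4h4, the H4 genes with the most distinct coding sequence, and the linker histone genes Hist1h1a and Hist1h1c. The 3 that ranked higher in REX1 than in the mutant list were Hist2h2bb, Hist3h2a and Hist3h2ba. These genes were singled out after their values were seen.

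Summits at histone genes fell inside the gene rather than at its start. In coding sequence lay 62 of 86 REX1 summits (72.1%), 65 of 77 RNF12 WT summits (84.4%) and 62 of 71 RNF12 H569A,C572A summits (87.3%). At all protein-coding genes the shares were 20.2%, 23.7% and 22.7%, and at 1269 other single-exon genes, which like histone genes have no intron, 45.7%, 55.4% and 52.0% of their summits. The median distance from the TSS was 173, 244 and 259 bp downstream, against 34, 50 and 33 bp at all protein-coding genes. At the other single-exon genes it was 177, 242 and 210 bp. The shift in REX1 and RNF12 WT was thus not particular to histone genes. Between 100 and 400 bp downstream lay 54.7% of REX1, 76.6% of RNF12 WT and 84.5% of mutant summits. At all protein-coding genes the shares were 21.1%, 25.7% and 24.1%, and at the other single-exon genes 26.5%, 30.6% and 31.3%. Of these single-exon genes, 36.0% had a REX1 summit within 1 kb, 40.8% an RNF12 WT summit and 42.0% a mutant summit, fewer than among protein-coding genes at large.

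**Figure D4:**
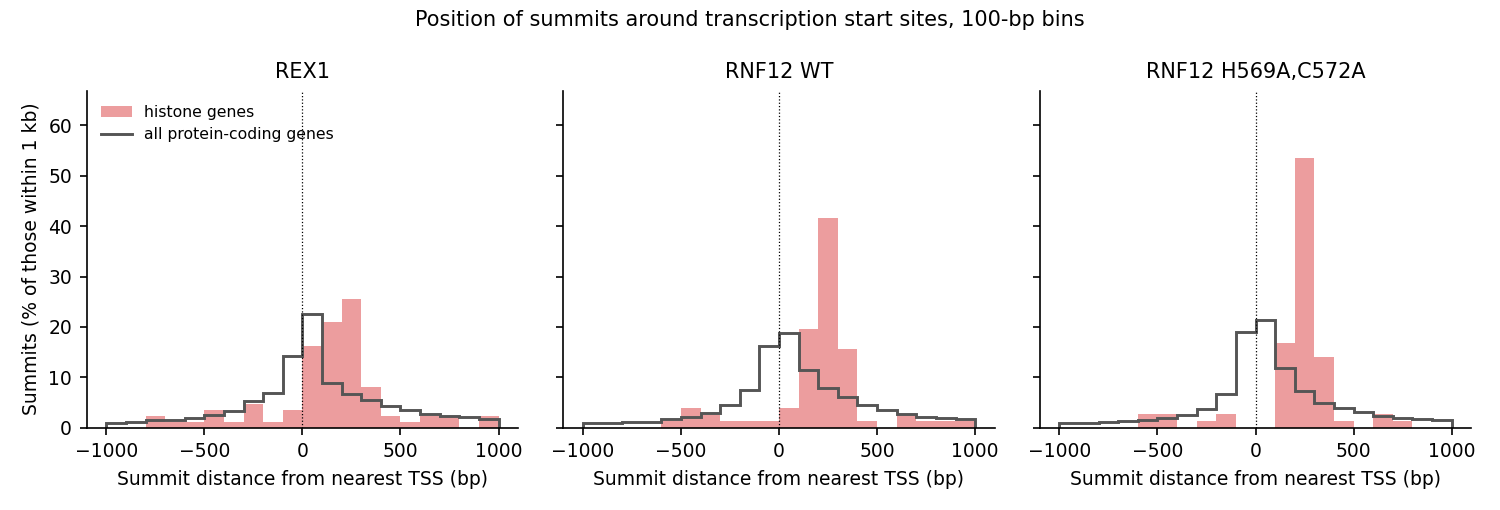
Percentage of summits within 1 kb (vertical axis) by signed distance from the nearest TSS in 100-bp bins (positive is downstream), for histone genes (filled) and all protein-coding genes (line), one panel per list. At histone genes the tallest bin runs from 200 to 300 bp downstream in every panel and holds 53.5% of mutant summits, 41.6% of RNF12 WT summits and 25.6% of REX1 summits.

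The RNF12 lists placed their summits closest to each other. Of 77 RNF12 WT summits at histone genes, 70.1% (59.2 to 79.2) lay within 100 bp of a mutant summit, against 40.9% at all protein-coding genes, with median gaps of 36 and 153 bp. For the 86 REX1 summits, an RNF12 WT summit was that close in 53.5% (43.0 to 63.7), against 44.3%, and a mutant summit in 44.2% (34.2 to 54.7), against 35.4%. For REX1, the background value lay inside the interval with RNF12 WT and just inside that with the mutant.

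Known promoter elements were frequent in histone promoters and infrequent near the summits. The window of 250 bases before to 50 after the annotated 5′ end was searched on both strands. CCAAT was found in 56 of 67 histone genes (83.6%, against 39.0% of 21938 genes) and TATAAA in 37 (55.2%, against 12.6%). The octamer ATTTGCAT, bound by POU2F1, was found in 15 (22.4%, against 1.57%), 7 of them H2A and 8 H2B genes. GGTCCG, which is part of the subtype-specific element of H4 promoters, was found in 12 of 13 H4 genes and in 15 histone genes (22.4%, against 9.6%). Within 50 bp of RNF12 H569A,C572A summits at histone genes, the CCAAT box was found at 0 of 71, against 5.5% at all protein-coding genes. It was found at 2 of 86 REX1 summits (2.33%, against 7.28%) and 1 of 77 RNF12 WT summits (1.3%, against 6.59%). The TATAAA box lay at 1 REX1 summit and the octamer at none of the 3 lists, but at all protein-coding genes they were also rare near summits, with at most 0.615% and 0.155% in any list. The H4 element GGTCCG was found at 3 of 86 REX1 summits (3.49%, against 6.02%), 2 of 77 RNF12 WT summits (2.6%, against 6.45%) and 3 of 71 mutant summits (4.23%, against 7.94%).

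A divergent H2A and H2B promoter and an H4 promoter are shown as these elements stand next to the coding summits above. The first is the whole stretch between the records of Hist1h2ac and Hist1h2bc (chr13:23683949-23684198) and the second the 150 bases before the Hist1h4b TSS (chr13:23756863-23757012), both on the + strand of GRCm38/mm10. Capitals mark the TATAAA box, the CCAAT box, the octamer and the H4 element on either strand.
Hist1h2ac and Hist1h2bc: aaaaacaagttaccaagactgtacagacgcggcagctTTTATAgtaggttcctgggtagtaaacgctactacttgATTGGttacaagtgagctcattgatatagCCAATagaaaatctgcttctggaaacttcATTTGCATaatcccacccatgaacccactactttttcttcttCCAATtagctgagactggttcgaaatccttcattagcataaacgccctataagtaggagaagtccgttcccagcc
Hist1h4b promoter: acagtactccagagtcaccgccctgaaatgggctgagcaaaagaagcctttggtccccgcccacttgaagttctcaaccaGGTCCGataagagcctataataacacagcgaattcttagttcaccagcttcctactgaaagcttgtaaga

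The REX1 recognition strings ATGGCGAC, ATGGCGCC, ATGGCGGC, ATGGCTAC, ATGGCTCC and ATGGCTGC, which overlap the core of the YY1 motif AAGATGGC in ATGGC, were sparse. One of them was found in 7 histone promoters (10.4%, against 7.37%), and AAGATGGC in 0 of 67 (against 2.92%). Within 50 bp of REX1 summits a string was present at 3 of 86 histone peaks (3.49%) and at 9.58% of peaks at all protein-coding genes. At RNF12 WT and mutant summits the counts were 1 of 77 (1.3%, against 4.3%) and 1 of 71 (1.41%, against 4.61%). Histone genes thus did not hold more of these strings at summits than other promoters did. The REX1 windows with a string outside untranslated sequence are those of Hist2h2ab (chr3:96219990-96220090, + strand, coding) and Hist3h2a (chr11:58953845-58953945, + strand, upstream of the gene), shown with the string in capitals.
Hist2h2ab: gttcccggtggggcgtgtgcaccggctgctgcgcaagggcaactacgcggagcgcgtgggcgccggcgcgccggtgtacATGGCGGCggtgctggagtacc
Hist3h2a: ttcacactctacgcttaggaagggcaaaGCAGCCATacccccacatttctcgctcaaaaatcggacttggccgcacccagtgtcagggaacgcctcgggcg

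The Hist2h2ab string ATGGCGGC lay within 50 bp of summits of all 3 lists, and fold enrichment there was 5.7 in REX1, 4.07 in RNF12 WT and 19 in the mutant list. The Hist3h2a string ATGGCTGC lay near a REX1 summit alone. The third string, ATGGCTAC, lay near a REX1 summit in the untranslated sequence of Hist1h3e.

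Other genes inside the clusters were mostly vomeronasal receptor genes without a summit. Between the outermost histone genes of the clusters lay 49 other protein-coding genes, and 6 of them had a REX1 summit (12.2%), 6 an RNF12 WT summit (12.2%) and 7 a mutant summit (14.3%). No list had a summit at 41 of the 49. Of these neighbours 36 were Vmn1r genes, which encode vomeronasal receptors, and 35 of those had no summit of any list. Of the 13 others, 6 had a REX1 summit, 6 an RNF12 WT summit and 6 a mutant summit (46.2% each, 5 genes being common to all 3 lists), below the share among protein-coding genes at large. None of the 49 had a mutant summit in the top 1%, which at a background of 0.501% carries no information for this number of genes.

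Genes that act on histone mRNA or histones were occupied about as often as the histone genes themselves, and their medians in the mutant list were lower. All 17 genes of histone mRNA transcription and processing had a summit in each list, as did all 11 replacement variant genes, which are expressed outside S phase, where 66.9%, 68.3% and 67.2% of protein-coding genes had one. Of 7 histone chaperone genes, 6 had a REX1 summit, 6 an RNF12 WT summit and 7 a mutant summit. Mutant summits in the top 1% numbered 0 in each of these groups, which at a background of 0.501% says nothing particular about groups of this size. Medians of the best mutant percentile were 82.4 for the mRNA group, 84.2 for the chaperones and 88.6 for the variants.

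In the mRNA group Sympk, a scaffold of the cleavage machinery, had the highest REX1 and mutant peaks (fold enrichments 14.8 and 28.3), and Npat, the coactivator of histone transcription, the highest RNF12 WT peak (8.58, over a word found 5978 times). Among chaperones, Hira, which deposits H3.3, was highest in all 3 lists at fold enrichments of 20.2, 14.8 and 25.1. Among variants, H3f3a led in REX1 (17.1), H2afv in RNF12 WT (8.58) and H2afx, whose product is phosphorylated at DNA breaks, in the mutant list (24.1). The H2afx summit word occurred 21 times, as did the word of Hist1h2ak, and its mutant percentile was 97.6.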

How the data were processed

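The peak lists came from V5 ChIP-seq of tagged REX1, of RNF12 WT and of its mutant H569A,C572A, 1 library each, and the REX1 library may stem from earlier work. Per the submitters' processing notes, reads were handled with Trim Galore 0.6.7, Bowtie2 2.5.0, SAMtools 1.10 and MACS2 2.2.7.1. The authors aligned the reads to an N-masked mm10 genome. In the deposited lists of 96050, 97602 and 98124 peaks, each peak has a fold enrichment (a ratio), a −log10 p-value, a −log10 q-value and a summit. Read depth is unknown, and the 2 control libraries were not analysed here. Their labels name them as inputs of REX1 and of RNF12, but which control was used to call each list is not given in the sources used here.

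Summits were assigned to every GENCODE M21 protein-coding gene (GRCm38, the same build) with a transcript start within 1 kb, and fold enrichment and −log10 q were ranked within each list. The 32-base word at each summit was looked up in the autosomes and the X and Y chromosomes, reading either strand. Wilson intervals at 95% cover counting error only. No test between lists was possible with 1 library each, and none was run. Assignment and word counting were tested on simulated data. Python 3.11.15, numpy 2.4.6, pandas 2.3.3, scipy 1.17.1 and numba 0.67.0 were used.

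Genes were named by rule: all of Hist2, Hist3 and Hist4; in Hist1 the 5 highest per list by fold enrichment (both genes where a peak is shared), the 3 testis-type genes, and up to 4 genes with a summit of no list, of REX1 alone or of RNF12 WT alone; and of the pathway lists any gene without a summit and the highest per list. Hist1h1a, Hist1h1c, Hist1h1e, Hist1h2ai and Hist1h3e were named outside this rule, after their values were seen. Genes and lists were chosen with earlier results of these data known. Alternatives were other windows, other gene assignments, stricter peaks, ranking by −log10 q, and words found once.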

Additional observations from a re-analysis of the deposited data

How the results depend on the processing

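The shares with a summit are given in the order REX1, RNF12 WT, RNF12 H569A,C572A. Within 300 bp of a TSS they were 83.6%, 76.1% and 76.1% (background 60.5%, 62.5% and 60.7%), and within 3 kb 100% in each list (background 70.8%, 72.2% and 71.7%). With only the 20000 best peaks by −log10 q, the RNF12 WT share was 86.6% (background 40.0%). Measured from the coding start, an alternative added after the data were seen, the REX1 and RNF12 WT shares were 98.5% each. Counting only summits whose 32-base word occurs once, they were 35.8%, 22.4% and 17.9%. In coding sequence 44 of 67 genes have under 25% unique words, and the part of this in these shares was not tested. Genes with a summit of all 3 lists then numbered 9, and 39 at 300 bp. Genes with a summit of no list numbered 38 with words found once, 5 at 300 bp, and 0 both at 3 kb and from the coding start. Median percentiles became 85.2, 93.3 and 90.4 with words found once, and 91.3 (REX1) and 90.7 (RNF12 WT) by −log10 q. Histone genes in the top 1% of the RNF12 H569A,C572A list, 40 of 67 as reported, numbered 0 with words found once (added after the data were seen). With those summits ranked among themselves, 2 of 67 were in the top 1% (background 2.1%). The other 39 values with an alternative setting kept within the interval or within 1.5 times of the value reported. No paired analysis was possible because each list came from 1 library and no test was run. Near-identical copies and unknown depth limit what a summit says of a single gene.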
